A study of Mus musculus with 8 samples.

Results

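Hcar2 and 9 genes of the NRF2 pathway were followed in neutrophils sorted from the inflamed spinal cord of mice at 2 times of day. The 10 genes were taken by name, and they were chosen with earlier results of these data known. They are the fumarate receptor gene Hcar2, the transcription factor gene Nfe2l2 (NRF2), its inhibitor Keap1 and a group of NRF2 targets. The targets are Hmox1, Nqo1, Gclc, Gclm, Txnrd1, Srxn1 and Slc7a11. All 10 were found among the 23369 genes of the count table, and all 10 were among the 12610 genes abundant enough to be tested. The cells were CD45+CD11b+Ly6G+ neutrophils. All donors were C57BL/6N mice in which EAE (experimental autoimmune encephalomyelitis), a mouse model of multiple sclerosis, had been induced. The 4 libraries of the ZT1 group were taken 1 hour after lights-on (zeitgeber time, ZT) and the 4 of the ZT13 group 13 hours after lights-on. EAE and the strain are shared by both groups. The labels give neither age nor sex, name no fumarate or other drug, and place all libraries in 1 batch. No library of healthy mice or of blood neutrophils was analysed here, so that the values describe disease tissue at both times.

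Dimethyl fumarate is an oral drug for multiple sclerosis with a pair of well-known routes of action. Its metabolite monomethyl fumarate activates HCA2, the hydroxycarboxylic acid receptor encoded by Hcar2, a Gi-coupled receptor that also binds nicotinic acid and the ketone body beta-hydroxybutyrate and that neutrophils express. Fumarates are also electrophiles that modify cysteines of KEAP1, the adaptor that hands NRF2 to a CUL3-RBX1 ubiquitin ligase. NRF2 that escapes degradation pairs with a small MAF protein, binds antioxidant response elements and induces genes of glutathione and thioredoxin metabolism, quinone reduction and heme breakdown. Neutrophils, which release oxidants in the oxidative burst, use the same systems to protect themselves.

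Total counts ran from 46152067 to 67873023 per library, so that 3 counts, the upper limit behind a count of 0, correspond to 0.0414 to 0.0674 CPM (read counts scaled to library size with TMM factors). These limits cover counting error only. The lowest count of any of the 10 genes in any library was 221, and the spread between libraries, not depth, set the precision. The neutrophil markers (14 listed, all detected) summed to 139494 to 179030 CPM at ZT1 and to 182406 to 231308 CPM at ZT13, without overlap. The most abundant genes set this sum, such as S100a8 with means of 25199 CPM at ZT1 and 39083 CPM at ZT13. Csf3r (1904 and 1559 CPM) and Ptprc (1816 and 1602 CPM) had lower means at ZT13. The other markers had higher means, some by little, such as Itgam (482 and 488 CPM) and Ltf (33447 and 34195 CPM). A part of any CPM difference that comes with this shift in the abundant granule and S100 transcripts was not tested. In bulk RNA, fewer cells of a type and less RNA per cell cannot be told apart.

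None of the 10 genes differed between the time points past the threshold of an adjusted p of 0.05 (edgeR quasi-likelihood test, Benjamini-Hochberg over 12610 genes), and 0% of all tested genes did. Their adjusted p-values ran from 0.403 for Hmox1 to 0.929 for Nfe2l2. At an unadjusted p under 0.05 stood 4 of the 10 genes, where 9.20% of all tested genes did. Of the 4, Hcar2, Txnrd1 and Srxn1 had lower values at ZT13 and Hmox1 had higher values. Over all genes 4.85% stood at such a p with lower and 4.35% with higher values at ZT13, so that 47.2% of these genes were higher at ZT13; with library totals as scaling this share was 34.0% and without a filter 32.1%, and the directions of the 4 genes were kept. Under 18 alternatives the count was 3 in 11, with Srxn1 or Hcar2 no longer among them, 4 in 6, and 6 without ZT13 replicate 4, with Nqo1 and Gclc added; Hmox1 and Txnrd1 were among them in every one. Of the 10 genes 7 had negative and 3 positive log2 fold changes for ZT13 over ZT1, where 52.3% of all tested genes had negative ones. Their median was -0.16, beside -0.02 for all genes tested. The groups of 4 libraries did not overlap for 1 gene, Hmox1, and over all genes this held for 5.66%. DESeq2 called 0 of the 10 genes and 1.70% of the genes with an adjusted p.

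**Figure D1:**
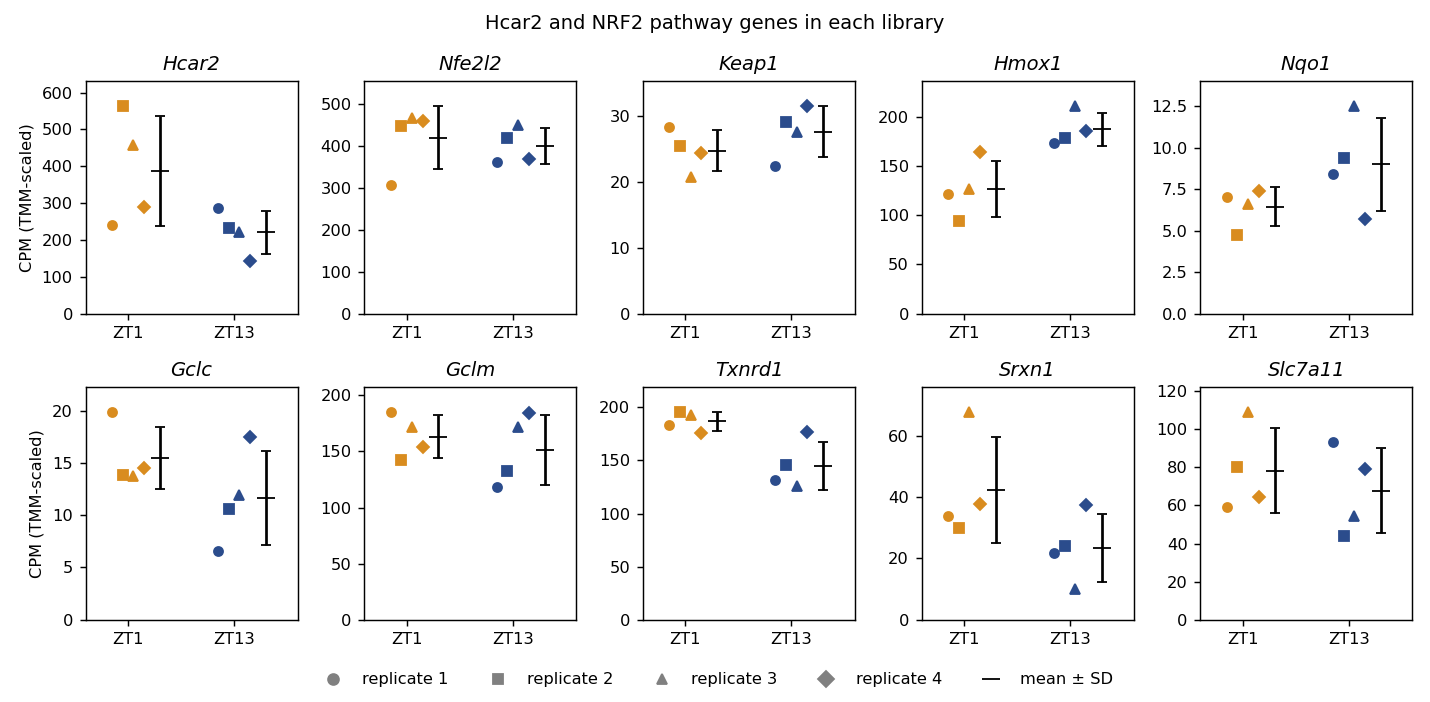
Level of each of the 10 genes in the 8 libraries, in TMM-scaled CPM on axes that start at 0, with ZT1 in orange and ZT13 in blue. Marker shapes number the replicates, which were not treated as paired, and bars are mean ± SD (n = 4). Hmox1 is the gene whose time points do not overlap, with ZT1 between 94.5 and 164 CPM and ZT13 between 173.7 and 211 CPM.

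Hcar2, the receptor gene, was lower at ZT13 in its mean, but the groups overlapped and the difference was not past the threshold. At ZT1 it stood at 241, 563.8, 457.9 and 289.5 CPM in replicates 1 to 4. At ZT13 it stood at 286, 231, 222.5 and 143.8 CPM. Replicates 2 and 3 of ZT1 were the high libraries, ZT1 replicate 1 lay within the ZT13 range, and ZT13 replicate 4 was the lowest of the 8. The means were 388 ± 149.5 CPM (SD, n = 4) and 221 ± 58.6 CPM. The log2 fold change, ZT13 over ZT1, came to -0.81 ± 0.28 (SE; 95% interval from -1.44 to -0.18; edgeR adjusted p = 0.491, unadjusted 0.0169). Without ZT1 replicate 2 the log2 fold change was -0.58, with an edgeR unadjusted p of 0.0596 and an adjusted p of 0.80. With a replicate block from library names, which keeps 6 libraries, it was -0.47 (edgeR unadjusted p = 0.172, adjusted 0.675). The biological coefficient of variation of Hcar2, the spread between libraries beyond counting, was 0.281, above the 0.153 of genes of its level. The gene lies on chromosome 5 at chr5:123863570-123865499 (GRCm38, minus strand, 1930 bases in a single exon union, protein-coding).

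The signalling partners of the receptor included abundant genes, and none passed the threshold. Of 12 listed genes of Gi coupling and receptor desensitization 10 were tested and 1 stood at an unadjusted p under 0.05 (edgeR), lower at ZT13. The list median was -0.16. For this list and those below, 9.20% of all tested genes stood at such a p and 52.3% had negative log2 fold changes. Gnai2, a Gi alpha subunit and the most abundant of them per length, stood at 1897 ± 147.5 and 2016 ± 20.3 CPM (log2 fold change 0.09 ± 0.08). Gnai3, another Gi alpha subunit, stood at 505 ± 16.3 and 447 ± 40.1 CPM and Arrb1, which encodes beta-arrestin 1, at 47.6 ± 12.5 and 38.9 ± 3.40 CPM. Grk3, a receptor kinase, was the 1 gene with a small p, at 9.91 ± 2.46 and 4.03 ± 2.72 CPM without overlap (-1.30 ± 0.49; edgeR adjusted p = 0.497). The related lactate receptor gene Hcar1 was not found in the count table. Gnai1 fell below the filter, with 0.386 CPM in its highest library.

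Nfe2l2, the gene of NRF2 itself, had similar means at both times. Its 4 ZT1 libraries stood at 308, 448, 466 and 460.1 CPM and its 4 ZT13 libraries at 361, 418, 451 and 368.5 CPM. The lowest value was that of ZT1 replicate 1, and 3 of the 4 ZT13 libraries lay below the other 3 ZT1 libraries. The means were 421 ± 75.3 and 399.9 ± 42.6 CPM, and the log2 fold change was -0.07 ± 0.14 with a 95% interval from -0.39 to 0.24. Without ZT1 replicate 1 it was -0.20 (edgeR unadjusted p = 0.0831, adjusted 0.828). Keap1, the inhibitor, stood at 28.4, 25.6, 20.8 and 24.5 CPM at ZT1 and at 22.4, 29.2, 27.6 and 31.6 CPM at ZT13. The groups overlapped, with a log2 fold change of 0.16 ± 0.16 and an interval from -0.20 to 0.51. Scaled per base of exon, the ratio of Keap1 to Nfe2l2 came to 0.04996 ± 0.0169 in the ZT1 group and 0.0563 ± 0.00922 in the ZT13 group (exact two-sided permutation test on the log2 ratio, p = 0.4, and 0.6 adjusted over 3 ratios chosen after the data were seen). The log2 difference of this ratio, 0.22 for ZT13 minus ZT1, rested on single libraries: it was 0.43 without ZT1 replicate 1 (exact permutation p = 0.0286, the smallest these 7 libraries allow, not adjusted) and 0.08 without ZT1 replicate 3 (exact permutation p = 0.743). Nfe2l2 lies at chr2:75675513-75704641 and Keap1 at chr9:21229730-21239361, both on the minus strand and protein-coding. An antisense gene shares 10.9% of the exon bases of Keap1 but held only 17 counts over all libraries.

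Among 15 regulators and partners of NRF2, 14 were tested, 0 passed, and 3 stood at an unadjusted p under 0.05, 2 of them higher and 1 lower at ZT13; the median was 0.00 on the log2 scale (-0.00387). Rbx1, the RING subunit of the ligase that ubiquitinates NRF2, had means of 62.3 ± 11.5 and 85.4 ± 4.48 CPM (log2 fold change 0.45 ± 0.13; edgeR adjusted p = 0.437), without overlap. Mafk, a small MAF partner, stood at 124 ± 3.00 and 105.8 ± 10.5 CPM (-0.23 ± 0.10; edgeR adjusted p = 0.519), also without overlap. Nfe2, a relative of NRF2 with a role in megakaryocytes, was the most abundant of the list per length and stood at 540.5 ± 33.8 and 619.5 ± 53.6 CPM (0.20 ± 0.09). The repressor gene Bach2 fell below the filter, with 0.613 CPM in its highest library.

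**Figure D2:**
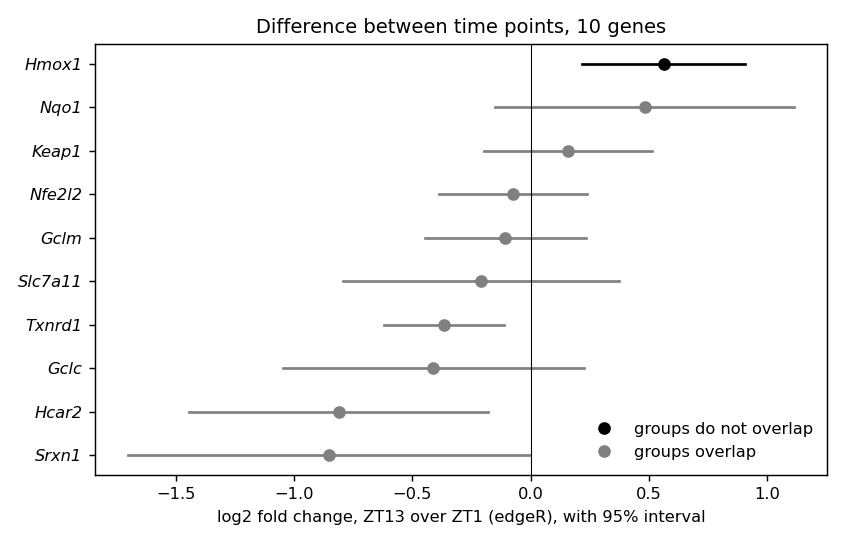
Log2 fold change of ZT13 over ZT1 for the 10 genes, from edgeR, with 95% intervals not adjusted for the number of genes tested. The intervals of Hmox1, Txnrd1, Hcar2 and Srxn1 leave out 0, and the 10 points run from -0.85 (Srxn1) to 0.56 (Hmox1).

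The genes of glutathione synthesis did not separate the time points. Gclc encodes the catalytic and Gclm the modifier subunit of glutamate-cysteine ligase, the first and rate-limiting enzyme of that pathway. Gclc stood at 19.8, 13.8, 13.8 and 14.5 CPM at ZT1 and at 6.62, 10.6, 11.96 and 17.4 CPM at ZT13. Its log2 fold change was -0.41 ± 0.28 (interval from -1.05 to 0.23), and it was -0.22 without ZT13 replicate 1, -0.27 without ZT1 replicate 1 and -0.67 without ZT13 replicate 4 (edgeR unadjusted p = 0.0293, adjusted 0.501). In Gclc 3 of the 4 ZT13 libraries lay below every ZT1 library, and ZT13 replicate 4 lay among them. Gclm stood at 185, 142, 172 and 154 CPM and at 118, 133, 171.5 and 184 CPM (-0.11 ± 0.15, interval from -0.45 to 0.23), with the groups overlapping over most of their range. The level of Gclc per base of exon relative to Gclm was 0.158 ± 0.0188 in the ZT1 group and 0.125 ± 0.0274 in the ZT13 group (exact two-sided permutation p = 0.114, adjusted 0.343; the smallest p possible is 0.0286). Slc7a11 encodes xCT, the light chain of the cystine importer that supplies the cysteine. It stood at 59.1, 80.4, 109 and 64.6 CPM at ZT1 and at 93.3, 44.1, 54.6 and 79.0 CPM at ZT13 (-0.21 ± 0.26, interval from -0.79 to 0.38). High and low libraries of Slc7a11 occurred at both times, and leaving out 1 library gave log2 fold changes between -0.40 (without ZT13 replicate 1) and -0.01 (without ZT1 replicate 3). Its partner, the heavy chain gene Slc3a2, was lower at ZT13 without overlap, at 246 ± 18.9 and 203 ± 18.5 CPM (-0.28 ± 0.10; edgeR adjusted p = 0.491). The ratio of Slc7a11 to Slc3a2 per base was 0.0798 ± 0.0177 and 0.0835 ± 0.0215 (exact permutation p = 0.8, adjusted 0.8).

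Gclc lies at chr9:77754535-77794485, Gclm at chr3:122245557-122270732 and Slc7a11 at chr3:49892526-50443614, the last on the minus strand, and all 3 are protein-coding. A gene on the opposite strand shares 4.71% of the exon bases of Gclm, and a pseudogene on the same strand shares 3.88%, so that reads there are uncertain. Of 18 other genes of glutathione synthesis and use 16 were tested, 0 passed, 11 had positive values and the median was 0.14. At an unadjusted p under 0.05 stood 3, namely Slc3a2 with lower and Gstp1 and Gsto1 with higher values at ZT13. Gstp1, a glutathione S-transferase, stood at 18.9 ± 3.82 and 26.8 ± 4.503 CPM (0.50 ± 0.19) and Gsto1, another, at 25.04 ± 5.001 and 37.3 ± 12.2 CPM (0.57 ± 0.26). Gsr, glutathione reductase, was the most abundant per length, at 2079 ± 106.5 and 1975 ± 91.1 CPM (-0.07 ± 0.08). Gstp1 has close paralogs, and its count is uncertain where reads map to more than 1 of them; the same holds for Prdx1 and Akr1b3 and for Gapdh, which has many pseudogenes.

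Among the genes of thioredoxin metabolism, Txnrd1 and Srxn1 had lower values at ZT13 while peroxiredoxin genes had mostly higher ones, and no gene passed the threshold. Txnrd1, cytosolic thioredoxin reductase, stood at 183, 195, 192 and 175.8 CPM at ZT1. At ZT13 it stood at 131, 145, 126 and 176.3 CPM. The 4 ZT1 libraries lay close together, 3 ZT13 libraries lay below all of them, and ZT13 replicate 4 lay just above the lowest ZT1 library. The log2 fold change was -0.37 ± 0.11 (interval from -0.62 to -0.11; edgeR adjusted p = 0.456, unadjusted 0.00949). Srxn1, sulfiredoxin, which restores overoxidized peroxiredoxins, stood at 33.7, 29.9, 67.7 and 37.7 CPM at ZT1 and at 21.8, 24.1, 10.2 and 37.5 CPM at ZT13. It varied most of the 10 genes, with a ratio of 6.66 between ZT1 replicate 3 and ZT13 replicate 3. Its log2 fold change was -0.85 ± 0.38 (interval from -1.70 to -0.00; edgeR adjusted p = 0.542), and -0.53 without ZT1 replicate 3. Txnrd1 lies at chr10:82833951-82897712 and Srxn1 at chr2:152105516-152111376, both protein-coding.

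Of 10 listed thioredoxin and peroxiredoxin genes all were tested and 0 passed. Positive values were held by 8, where 52.3% of all tested genes had negative ones. At an unadjusted p under 0.05 (edgeR) stood 2, both higher at ZT13, where 9.20% of all tested genes did. The median of 0.33 was the highest of the pathway lists, beside -0.02 for all genes tested. A shift of the list as a whole was not tested. Prdx1, an NRF2-inducible peroxiredoxin, stood at 148 ± 22.7 and 192 ± 21.2 CPM (0.38 ± 0.13; edgeR adjusted p = 0.491). Prdx2 stood at 29.8 ± 6.96 and 39.6 ± 2.74 CPM (0.41 ± 0.17) and Prdx4, the peroxiredoxin of the endoplasmic reticulum, at 13.5 ± 2.09 and 19.9 ± 6.24 CPM (0.56 ± 0.26). Prdx5 was the most abundant of the list per length, at 1077 ± 346 and 1311 ± 100.9 CPM (0.28 ± 0.19).

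Promoter sequences are shown for Gclm, Txnrd1 and Srxn1. Their windows held, before the start site and outside annotated exons, elements of a kind known to bind NRF2 or AP-1 factors. RefSeq windows of GRCm38.p6, from 250 bases before to 50 after a start site, were matched for 7 of the 10 genes (9 windows); Hcar2, Hmox1 and Gclc had no entry. The core of the antioxidant response element, TGACNNNGC on either strand, was present in 4 of the 9 windows, beside 12.4% of all 32851 windows. These 4 belonged to 4 of the 7 genes (Nfe2l2, Gclm, Txnrd1 and Srxn1). The capitals mark this core, here on the opposite strand, in the first 2 stretches, and an AP-1 element, TGANTCA on either strand, in the third. All 3 stretches are given on the plus strand.
Gclm, chr3:122245398-122245456: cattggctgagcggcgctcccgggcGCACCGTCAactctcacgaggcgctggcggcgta
Txnrd1, chr10:82859089-82859147: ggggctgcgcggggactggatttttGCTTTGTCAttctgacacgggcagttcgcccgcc
Srxn1, chr2:152105397-152105510: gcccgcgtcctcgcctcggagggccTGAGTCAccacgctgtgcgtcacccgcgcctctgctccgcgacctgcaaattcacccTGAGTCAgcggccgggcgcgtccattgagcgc

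The Gclm element begins 134 bases before the start site and the Txnrd1 element 92 bases before the middle 1 of its 3 windows. Srxn1 was the 1 gene of the 7 with an AP-1 element, present 2 times, beginning 102 and 45 bases before the start site. Such an element was held by 1 of the 9 windows and by 7.81% of all windows. The second AP-1 element of Srxn1 is followed by GC, so that it also matches TGANNNNGC. This is a looser form of the antioxidant response element with which AP-1 elements overlap. The looser form was held by 7 of the 9 windows (6 of the 7 genes) and by 41.3% of all windows. The strict core of Srxn1 lies after its start site. The E-box CACGTG, bound by the clock proteins CLOCK and BMAL1, was found in 0 of the 9 windows and in 7.15% of all windows. A match is a description of these letters and shows no binding, and windows without a match say nothing of elements farther away.

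Hmox1, the gene of heme oxygenase 1, which breaks down heme to biliverdin, iron and carbon monoxide, was the gene with the most distinct groups. At ZT1 it stood at 122, 94.5, 126 and 164 CPM. At ZT13 it stood at 173.7, 178.5, 211 and 185 CPM. Every ZT13 library lay above every ZT1 library, with the smallest gap between ZT1 replicate 4 and ZT13 replicate 1; 2.66% of all tested genes were higher at ZT13 in the same way. The means were 127 ± 28.6 and 187 ± 16.6 CPM, 1.48-fold higher at ZT13, with a log2 fold change of 0.56 ± 0.15 (interval from 0.22 to 0.91; edgeR adjusted p = 0.403, unadjusted 0.00465; DESeq2 adjusted p = 0.0626). Leaving out any 1 library gave log2 fold changes between 0.44 and 0.71. It lies at chr8:75093621-75100589 on the plus strand and is protein-coding.

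The other genes of heme and iron handling did not share this separation. All 7 listed were tested, 0 passed, 0 stood at an unadjusted p under 0.05, and the median was 0.10. Fth1, ferritin heavy chain, was the most abundant at 3764 ± 1116 and 4034 ± 623 CPM (log2 fold change 0.10 ± 0.20). Ftl1, ferritin light chain, stood at 852 ± 159 and 1024 ± 43.2 CPM (0.26 ± 0.12), and Slc40a1, the iron exporter ferroportin, at 556.5 ± 45.9 and 600.1 ± 78.1 CPM (0.11 ± 0.11). Fech, which completes heme synthesis, stood at 26.3 ± 3.06 and 22.7 ± 7.39 CPM. The ferritin genes have many pseudogenes, with which reads could have been shared. Erythroid markers (6 listed, 0 of them at 0 in every library) summed to between 0.422 and 3.81 CPM at ZT1 and between 2.52 and 30.1 CPM at ZT13, led by the beta globin gene Hbb-bs. Of the 3 tested erythroid markers 2 stood at an unadjusted p under 0.05 (edgeR), where 9.20% of all tested genes did. The 30.1 CPM belonged to ZT13 replicate 4, which had the second highest Hmox1 level of the 4 ZT13 libraries. The part of these transcripts in the Hmox1 difference was not tested.

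Nqo1, NAD(P)H quinone dehydrogenase 1, the classical reporter of NRF2 activity, was among the least abundant of the 10 genes. It stood at 7.03, 4.75, 6.61 and 7.38 CPM at ZT1 and at 8.41, 9.40, 12.5 and 5.70 CPM at ZT13. ZT13 replicates 1 to 3 lay above all ZT1 libraries and ZT13 replicate 4 below 3 of them, and the log2 fold change was 0.48 ± 0.28 (interval from -0.15 to 1.11; edgeR adjusted p = 0.665). It was 0.28 without ZT13 replicate 3 and 0.65 without ZT13 replicate 4 (edgeR unadjusted p = 0.0336, adjusted 0.519). It lies at chr8:107388225-107403206 on the minus strand and is protein-coding. Of 13 other enzymes that act on quinones, aldehydes and xenobiotics 10 were tested, 0 passed, 8 had positive values and the median was 0.17. The 1 gene at an unadjusted p under 0.05 was Akr1b3, an aldose reductase, at 23.7 ± 1.28 and 29.7 ± 2.47 CPM (0.33 ± 0.13; edgeR adjusted p = 0.504), without overlap. Osgin1, an oxidative stress-induced growth inhibitor, stood at 110.5 ± 13.7 and 133 ± 15.7 CPM (0.27 ± 0.12), also without overlap, and Esd, esterase D, at 126 ± 16.6 and 146 ± 13.2 CPM. Akr1a1, aldehyde reductase, was the most abundant per length, at 201 ± 25.4 and 220 ± 13.6 CPM. Aldh3a1 had 0 counts in all 8 libraries.

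**Figure D3:**
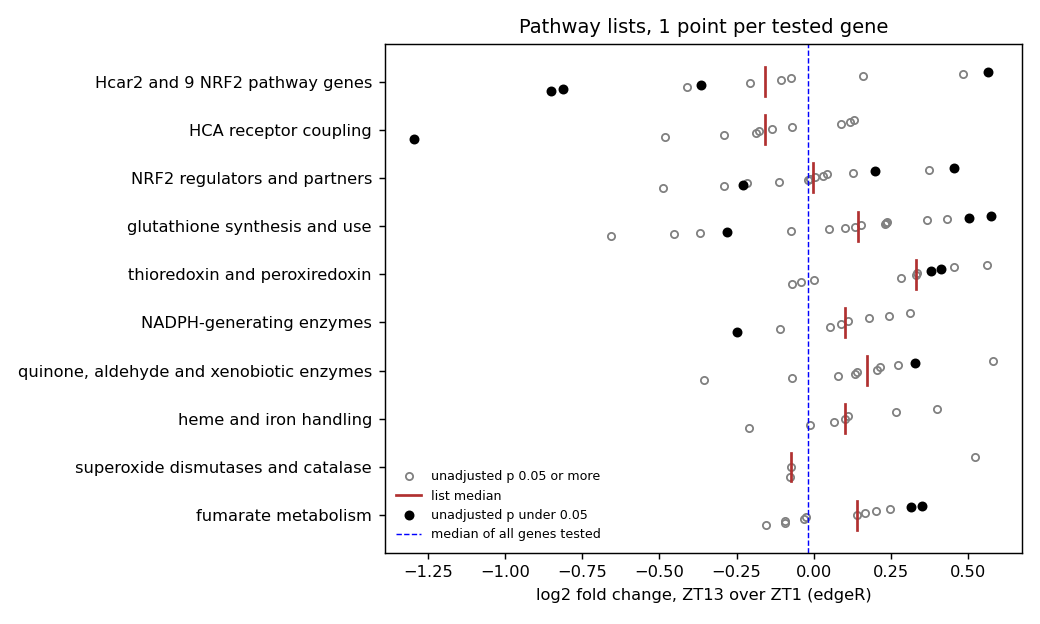
Log2 fold change of ZT13 over ZT1 (edgeR) for each tested gene of the 10 followed here and of 9 lists of related genes; filled points stand at an unadjusted p under 0.05, red bars are list medians and the dashed line is the median of all tested genes (-0.02). No gene shown passed the adjusted threshold, and list medians run from -0.16 to 0.33.

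The NADPH that these reductases consume comes from the pentose phosphate pathway and a few dehydrogenases. Of 9 such enzymes 8 were tested, 0 passed, 6 had positive values and the median was 0.10. Taldo1, transaldolase, was the most abundant per length, at 1225 ± 229 and 1450 ± 74.0 CPM (0.24 ± 0.13). Idh1, cytosolic isocitrate dehydrogenase, was lower at ZT13 without overlap, at 224 ± 19.1 and 188 ± 7.98 CPM (-0.25 ± 0.09; edgeR adjusted p = 0.491), while Pgls of the pentose phosphate pathway stood at 36.1 ± 6.52 and 44.9 ± 5.43 CPM. Of the dismutase and catalase genes 3 of 4 were tested and 0 stood at an unadjusted p under 0.05. Cat stood at 56.3 ± 1.73 and 53.5 ± 3.50 CPM, Sod2 at 83.7 ± 30.1 and 79.4 ± 18.9 CPM, and Sod1 at 8.54 ± 1.83 and 12.2 ± 3.52 CPM. The list of fumarate metabolism held 11 genes, with the neighbouring enzymes Mdh1, Mdh2 and Ass1 and the fumarate target Gapdh among them. All 11 were tested and 0 passed (median 0.14). At an unadjusted p under 0.05 stood 2 of them. Asl, argininosuccinate lyase, stood at 31.6 ± 0.432 and 40.3 ± 8.09 CPM without overlap, and Sdhb of succinate dehydrogenase at 133 ± 26.0 and 165 ± 16.5 CPM with overlap. Over all 99 genes of these lists 89 were tested, and 0 passed in edgeR and 0 in DESeq2. At an unadjusted p under 0.05 (edgeR) stood 14.6%, beside 9.20% of all genes, and 9 of these 13 were higher and 4 lower at ZT13. The groups did not overlap for 10.1% of the 89, with 5 higher and 4 lower at ZT13, beside 5.66% of all tested genes.

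The levels of the 10 genes were compared with each other as CPM per kb of exon. Over the 8 libraries Hcar2 had the highest mean, 158 ± 71.5 (SD, n = 8), followed by Nfe2l2 at 108.1 ± 15.2 and Hmox1 at 89.6 ± 22.2. These 3 overlapped in range: Hcar2 was above Nfe2l2 in 6 of 8 libraries and Nfe2l2 above Hmox1 in 5. Below a gap came Gclm at 25.01 ± 3.93 and Txnrd1 at 23.4 ± 3.86, which overlapped, with Gclm the higher in 6 of 8 libraries. The lowest Hmox1 library, at 54.0, lay above the highest Gclm library, at 29.4. Srxn1 followed at 11.6 ± 5.97 and was below Txnrd1 in all 8 libraries and above Keap1 in 7, although the ranges overlapped. Keap1 (5.59 ± 0.770), Slc7a11 (5.24 ± 1.54), Nqo1 (4.97 ± 1.56) and Gclc (3.60 ± 1.08) came last, and neighbours among them did not differ beyond their spread. The order differed between the times. Hcar2 stood at 201 ± 77.5 at ZT1 and 114.5 ± 30.4 at ZT13 (n = 4), Nfe2l2 at 110.8 ± 19.8 and 105.3 ± 11.2, and Hmox1 at 72.3 ± 16.3 and 106.9 ± 9.50, so that Hmox1 came before Nfe2l2 at ZT13 by less than their SD. Txnrd1 came before Gclm at ZT1 (26.3 ± 1.24 and 25.9 ± 3.03), Slc7a11 before Keap1 at ZT1 (5.62 ± 1.61 and 5.29 ± 0.666) and Nqo1 before Slc7a11 at ZT13 (5.80 ± 1.81 and 4.87 ± 1.61), each also by less than the SD. With the length of the longest transcript in place of the exon union, 6 genes changed places, each with a neighbour (Nfe2l2 with Hcar2, Txnrd1 with Gclm, Slc7a11 with Keap1).

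**Figure D4:**
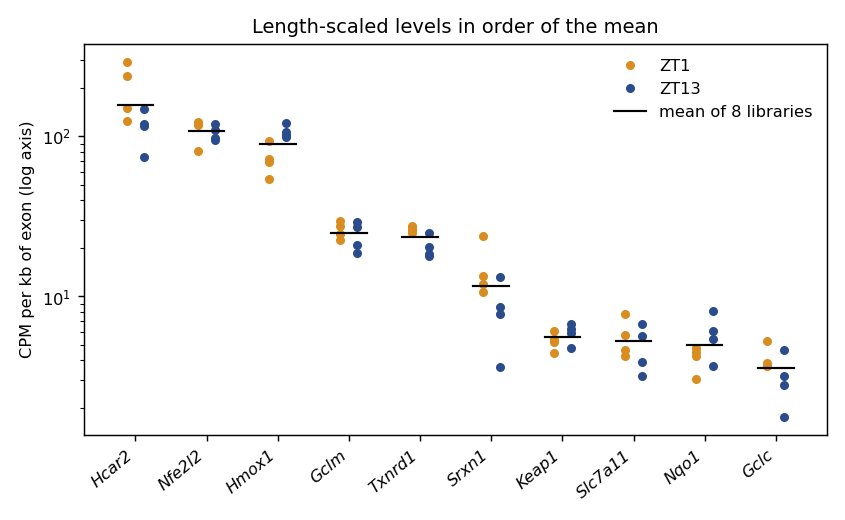
CPM per kb of exon (log axis) of the 10 genes in the 8 libraries, ZT1 in orange and ZT13 in blue, in order of the mean over the 8 libraries (black lines). Hcar2, Nfe2l2 and Hmox1 lie apart from the other 7 genes.

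The 10 genes did not vary as 1 block from library to library. Over the 45 pairs, 22 Pearson correlations of log2 CPM over the 8 libraries were positive and 23 negative, with a median of -0.02. At an unadjusted p under 0.05 (exact two-sided permutation test) stood 8 pairs, and 0 passed when adjusted over the 45 pairs (smallest adjusted p = 0.0569). Pairs of other genes were not tested in this way, so that it is not known whether 8 is many for these libraries. The 2 subunit genes Gclc and Gclm had r = 0.864 (exact permutation p = 0.00379, adjusted 0.0569; Spearman rho 0.81, p = 0.0218, adjusted 0.245). Their r was 0.64 without the 2 libraries farthest from the median of Gclc, and 0.878 for deviations from the group means. Txnrd1 and Srxn1 had r = 0.834 (exact permutation p = 0.00243, adjusted 0.0569; rho 0.667, p = 0.0831, adjusted 0.425), 0.597 without the 2 far libraries and 0.717 for the deviations. Nqo1 and Txnrd1, both NRF2 targets, had opposite patterns with r = -0.864 (exact permutation p = 0.00280, adjusted 0.0569; rho -0.905, p = 0.00456, adjusted 0.205), -0.755 without the 2 far libraries and -0.849 for the deviations. Hcar2 and Hmox1 had r = -0.771 (exact permutation p = 0.0240, adjusted 0.216; rho -0.833, p = 0.0154, adjusted 0.245), which was -0.554 without the 2 far libraries and -0.53 for the deviations. Without ZT1 replicate 2 the pairs Hcar2 with Keap1 (r = -0.916) and Txnrd1 with Srxn1 (r = 0.907) passed at an adjusted exact permutation p of 0.0402. Without ZT13 replicate 4 the pairs Keap1 with Slc7a11 (r = -0.933), Hmox1 with Nqo1 (r = 0.949) and Nqo1 with Txnrd1 (r = -0.872) passed at an adjusted exact permutation p of 0.0476.

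**Figure D5:**
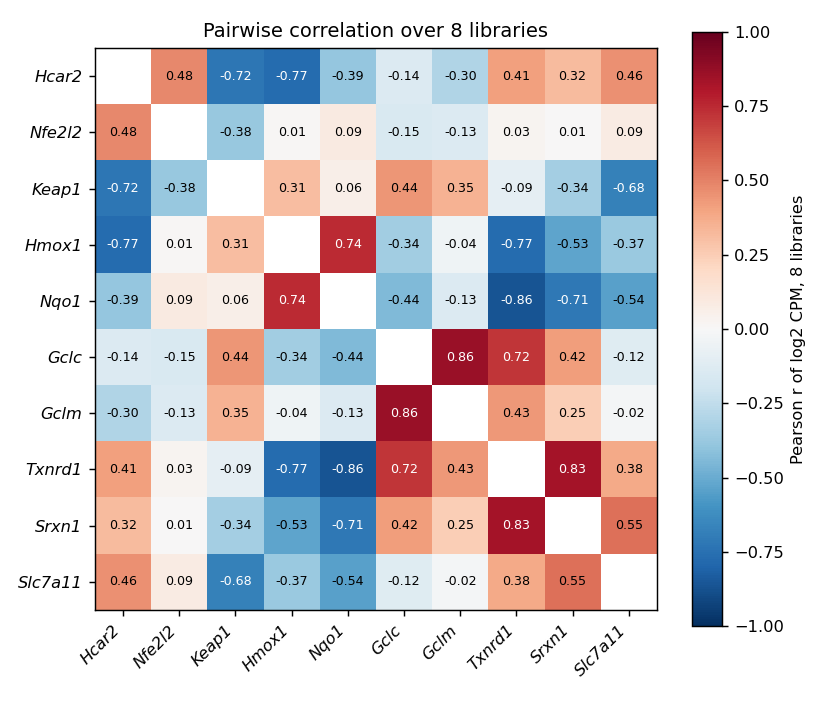
Pearson r of log2 CPM over the 8 libraries for each pair of the 10 genes, from blue (-1) to red (1). Gclc with Gclm (0.86) and Txnrd1 with Srxn1 (0.83) have the highest values and Nqo1 with Txnrd1 (-0.86) the lowest.

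Among 7874 protein-coding genes of 5 or more CPM, those whose log2 CPM followed Hcar2 most closely over the 8 libraries were Icam1 (r = 0.939), F3 (0.923), Rnf149 (0.917), Mefv (0.913) and Arrdc4 (0.901). Icam1, an adhesion molecule, stood at means of 65.02 CPM at ZT1 and 31.7 at ZT13, F3, tissue factor, at 12.2 and 3.94 CPM, and Mefv, which encodes pyrin, at 81.7 and 54.5 CPM. For deviations from the group means r was between 0.845 and 0.948 in these 5 genes. The closest to Nfe2l2 were Steap4 (0.944), Mfsd6 (0.933), Tmem38a (0.917), Sqor (0.915) and Tcta (0.902). Steap4, a metalloreductase, stood at 502 and 471 CPM, and Sqor, sulfide quinone oxidoreductase, at 323 and 331 CPM. The points share the 8 libraries and their depths, and with so many genes compared these values are descriptions, given without a test.

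Markers of other cell types were measured beside the 10 genes, since macrophages and microglia also express Hcar2, Hmox1 and other NRF2 targets. Microglia and macrophage markers (16 listed, 15 tested, 0 at 0 in every library) summed to 1083 to 1705 CPM at ZT1 and 928 to 1555 CPM at ZT13. Among the defining ones, Tmem119 stood at 5.74 ± 3.68 and 10.2 ± 2.28 CPM, P2ry12 at 17.8 ± 3.05 and 19.2 ± 8.83, C1qa at 5.05 ± 4.73 and 7.56 ± 1.89, Adgre1 at 86.3 ± 16.1 and 80.2 ± 16.3 and Csf1r at 554 ± 78.5 and 463 ± 86.5. All of these defining markers overlapped between the groups. Of the 15 tested genes of this list 1 stood at an unadjusted p under 0.05 (edgeR). Mrc1, a macrophage marker at a low level, was higher at ZT1 without overlap (0.585 to 2.26 and 0 to 0.135 CPM). It passed the filter only through its ZT1 libraries, so that its separation and its p are descriptions only. The most abundant markers of the other lists were F13a1 for monocytes and dendritic cells (1312 CPM on average), Ighm for B cells (179), Mbp for neural cells (129), Acta2 for vessels (20.7), Siglecf for eosinophils (19.6) and Cd3d for T cells (2.89). The summed levels of these 6 lists overlapped between the groups as well, for example 2556 to 3290 and 2736 to 3675 CPM for the monocyte and dendritic cell list, where 2 of 9 tested genes stood at an unadjusted p under 0.05, and 2.02 to 5.87 and 1.93 to 8.98 CPM for the T cell list. Within the monocyte and dendritic cell list Ly6c2, a marker of inflammatory monocytes, was higher at ZT13 without overlap (679 to 1048 and 1105 to 1298 CPM), while Ccr2, their chemokine receptor, had means of 506 ± 50.0 and 382 ± 91.2 CPM. Olig1 of the neural list and Rgs5 of the vessel list were at 0 in every library. At an unadjusted p under 0.05 (edgeR) stood 1 of 4 tested genes of the T and NK cell list and 1 of 4 of the B and plasma cell list. No tested gene of the neural, vessel and eosinophil lists did, while 6 of 14 neutrophil markers and 9.20% of all tested genes did. Without overlap, Cd79b of B cells was higher at ZT13 (0.94 to 1.95 and 2.285 to 4.51 CPM) and Prf1 of T and NK cells lower (0.279 to 0.5245 and 0 CPM). Prf1 passed the filter only through its ZT1 libraries, so that its separation and its p are descriptions only. Both lists held markers that went the other way. Ighm had means of 190 CPM at ZT1 and 167 CPM at ZT13, and Cd3d of 2.10 and 3.68 CPM. Over all tested genes the groups did not overlap for 5.66%. Which share of the transcripts of the 10 genes came from such cells was not tested.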

How the data were processed

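Raw read counts for each Ensembl gene were deposited by the authors for 8 libraries (ZT1, n = 4; ZT13, n = 4). Per the labels' protocols, cDNA was amplified from sorted cells with SMART-Seq v4, the Nextera XT kit, an unstranded method, gave the libraries, and single reads of 50 bases were taken. Build GRCm38 and STAR 2.7.10b, DESeq2 1.46.0, Subread 2.0.3, featureCounts and FastQC are listed in the processing notes of the submitters. Not given in the sources used here are the annotation release, the strand setting and how multi-mapping reads were treated. Of 23369 identifiers 22231 matched GENCODE M21 (GRCm38) with versions ignored; the others held 0.121% of counts. The protocol counts sorted cells per mouse, but no label ties a sample to 1 mouse, so p-values measure the spread between these samples.

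The test was that of edgeR 4.0.16 (R 4.3.3) with filterByExpr (minimum count 10, minimum total 15), TMM factors, robust quasi-likelihood F-tests, Benjamini-Hochberg adjustment over 12610 genes, threshold 0.05. SE is the absolute log2 fold change over the square root of F. Log2 CPM used a prior count of 2. Alternatives used DESeq2 1.42.0, limma 3.58.1, other factors, filters and thresholds, a replicate block and each library left out. The code was tested on simulated data. The text names all 10 genes. Of each related list it names the most abundant gene per length and up to 3 with the smallest p, though not all are printed. Of lists of other cell types it names the most abundant, 5 defining macrophage and microglia markers and some further markers picked for their values. It also names the 5 genes most like Hcar2 and Nfe2l2. The genes and lists were chosen with earlier results of these data known.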

Additional observations from a re-analysis of the deposited data

Results flagged for a closer look

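Among 86 sets of 4 libraries (each named gene at each time), 5 held a library far from the other 3, with a gap to the nearest of more than Dixon's critical share of the whole range; chance flags about 1 in 20 such sets. In Nfe2l2, ZT1 replicate 1 was low at 308 CPM, with the other 3 between 448 and 466 CPM. In Gclc the same library was high at 19.8 CPM, with the others between 13.8 and 14.5 CPM, and in Cat it was high at 58.9 CPM, with the others between 55.2 and 55.7 CPM. Gsto1 was high in ZT1 replicate 3 at 32.5 CPM, with the others between 21.8 and 23.2 CPM. Prdx2 was low in ZT13 replicate 3 at 35.5 CPM, with the others between 40.6 and 41.4 CPM.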

How the results depend on the processing

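None of the 10 genes passed the adjusted threshold of 0.05 under any alternative run. Hmox1 and Txnrd1 stood at an unadjusted p under 0.05 in all of them, and 179 of the 180 alternative log2 fold changes kept their direction. The exception was Nfe2l2, at 0.0322 with the replicate block from library names, a fit that leaves out the 2 libraries whose numbers are not shared (-0.07 without a block; the cause was not tested); with that block Hcar2 was -0.47 and no longer at an unadjusted p under 0.05. Same-numbered samples showed little pairing, with correlations of their deviations between -0.0399 and 0.0505. Only library number 4 (r = 0.0505) joined samples that were each other's best partners. With either replicate block 0 genes passed. Over all genes DESeq2 called 256, where edgeR (smallest adjusted p 0.246) and the other settings called 0; 1160 stood at an unadjusted p under 0.05, 47.2% of them higher at ZT13 (34.0% with library totals, 32.1% without a filter). Correlated pairs numbered 0 to 3 with 1 library left out, and 0 otherwise. The log2 ratio of Slc7a11 to Slc3a2 (0.06, chosen after seeing the data) ranged from -0.0853 to 0.189 with 1 library left out, turning sign without ZT1 replicate 1 (-0.0158) or 4 (-0.0338) or ZT13 replicate 1 (-0.0853) or 4 (-0.0098). That of Keap1 to Nfe2l2 ranged from 0.0779 to 0.426 and that of Gclc to Gclm from -0.475 to -0.222. Another length moved 6 places in the order of levels. The intervals for Hcar2 and Srxn1 were wide because their libraries differed, and depth was not the limit.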
